A study of Homo sapiens with 5 samples.

Results

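The genes described here are 10 feedback and output genes of the ERK pathway, chosen by name: the phosphatase genes DUSP4, DUSP5 and DUSP6, the Sprouty family genes SPRY2, SPRY4 and SPRED2, the Ets factor genes ETV4 and ETV5, and PHLDA1 and IER3. They were chosen with earlier results of these data known. Of the 10, 7 had a probe set on the array, 1 probe set each, among 7713 genes in all. SPRY4, SPRED2 and ETV4 were not matched to a probe set by the annotation and were not analysed here. The arrays were from KMH2 (KM-H2), an established Hodgkin lymphoma line of B cell origin, treated with LY294002 at 30 uM (2 arrays) or with the solvent DMSO as control (3 arrays) for 16 hours; the authors planned triplicates and left out 1 array for high background. Both groups were grown in RPMI1640 with fetal serum and antibiotics. LY294002 inhibits phosphoinositide 3-kinase (PI3K), and its known further targets include mTOR and the BET bromodomain proteins. Expression is given as log2 probe set values, so a difference of 1 is a doubling.

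ERK is the last kinase of the RAS, RAF, MEK and ERK cascade, which carries signals from growth factor and antigen receptors to the nucleus. ERK activity induces a small set of genes within hours, and many of their products act back on the cascade: DUSP phosphatases remove phosphate from ERK, and Sprouty and SPRED proteins act upstream, between receptors and RAF. The transcripts of this set are therefore widely used as a readout of ERK output. PI3K inhibitors can alter ERK signalling in either direction, depending on the cell.

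Array medians lay between 6.26 and 6.29, while the upper quartile was highest on LY294002 replicate 1 (7.69, against 7.62 on LY294002 replicate 2 and 7.59 to 7.62 on the DMSO arrays). The normalization behind these values is not given in the sources used here. Pearson's r across probe sets was at least 0.996 within a group and at most 0.992 between groups. Among markers of the line, CD40 averaged 10.3 with LY294002 and 10.4 with DMSO, and TNFRSF8, the gene of the Hodgkin marker CD30, averaged 7.55 with LY294002 and 8.23 with DMSO. Of 6 Hodgkin markers 1 passed between the groups: IRF4, a factor of plasma cells and Hodgkin cells, rose by 0.66 ± 0.07 (limma adjusted p = 0.0473). TRAF1, an adaptor of TNF receptors, was at 0.38 ± 0.07 (0.0994). Of the 6, only these 2 had log2 fold changes above 0, and the median was -0.10. TNFRSF8 was at -0.68 ± 0.17 (limma adjusted p = 0.157) and CCL17 at -0.37 ± 0.17 (0.376). CD40 was at -0.13 ± 0.09 (0.467) and FUT4 at -0.06 ± 0.03 (0.398). Over all genes 0.908% passed. The B cell marker MS4A1 averaged 9.42 with LY294002 and 10.4 with DMSO, whereas CD79B was dim, at 5.19 with LY294002 and 5.18 with DMSO. Of 4 measured B cell markers 1 passed: BLNK, which links the B cell receptor to downstream enzymes, averaged 5.67 with LY294002 and 7.14 with DMSO (log2 -1.48 ± 0.15, adjusted p = 0.0419). With any 1 array left out, both calls were lost. With 1 DMSO array left out the limma adjusted p-values were 0.0874 to 0.215 for IRF4 and 0.0994 to 0.199 for BLNK. In those fits 0 to 4 of all genes passed, so the loss was not particular to IRF4 and BLNK. The part of IRF4 and BLNK in the values of the ERK feedback genes was not tested. Of the markers of other cells, 0 of 5 T cell, 0 of 5 monocyte and 0 of 4 fibroblast genes passed the test between the groups, although CD3D was bright, at 8.71 with LY294002 and 8.80 with DMSO. Whether the replicates came from separate cultures is not stated in the labels, and the p-values cover only the spread among these arrays, which could be technical. In such bulk samples fewer cells of a kind and less RNA per cell cannot be told apart.

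Promoter sequences, from 250 bases before to 50 after the annotated start, are given from RefSeq (GRCh38.p14) for 3 of the 7 measured genes. No entry was found for ETV5, IER3 and DUSP5, and DUSP4 was left out of the search. The 3 are shown because they were the measured genes with an entry that was searched, and not for their direction. PHLDA1 was among the genes with higher values with LY294002, SPRY2 had lower values and DUSP6 values overlapped between groups. In limma 0 of the 7 measured genes passed the adjusted threshold of 0.05. The letters of 4 motifs were searched on both strands: CCGGAA, the core of many Ets sites, TGANTCA of AP-1, TGACGTCA of CREB and ATF factors, and GTAAACA of FOXO factors. Capitals mark a match on either strand.
PHLDA1 promoter, chr12:76031727-76032026, minus strand: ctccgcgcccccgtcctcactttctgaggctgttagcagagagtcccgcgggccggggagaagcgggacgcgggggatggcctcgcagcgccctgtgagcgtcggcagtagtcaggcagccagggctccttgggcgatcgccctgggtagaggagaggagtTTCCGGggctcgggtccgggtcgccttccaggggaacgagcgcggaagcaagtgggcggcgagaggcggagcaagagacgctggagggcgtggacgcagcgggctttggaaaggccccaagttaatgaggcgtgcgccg
SPRY2 promoter, the most upstream of 3 annotated starts, chr13:80341077-80341376, minus strand: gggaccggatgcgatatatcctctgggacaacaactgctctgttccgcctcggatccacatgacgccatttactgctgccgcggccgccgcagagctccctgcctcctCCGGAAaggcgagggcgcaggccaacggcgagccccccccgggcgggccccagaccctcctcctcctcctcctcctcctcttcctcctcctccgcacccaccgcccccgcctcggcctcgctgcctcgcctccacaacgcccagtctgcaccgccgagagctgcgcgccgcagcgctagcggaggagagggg
DUSP6 promoter, chr12:89352452-89352751, minus strand: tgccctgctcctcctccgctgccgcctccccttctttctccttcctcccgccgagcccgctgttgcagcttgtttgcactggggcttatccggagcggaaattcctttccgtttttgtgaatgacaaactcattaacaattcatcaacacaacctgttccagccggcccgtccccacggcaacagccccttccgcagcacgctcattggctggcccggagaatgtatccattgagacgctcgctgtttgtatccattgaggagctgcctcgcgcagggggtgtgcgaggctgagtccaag
PHLDA1 held the Ets letters 1 time, as their reverse complement, beginning 89 bases before the start, and SPRY2 held them 1 time, 142 bases before it. DUSP6 held none of the searched motifs, and neither did the other 2 SPRY2 starts. The Ets letters occurred in 17.2% of 35116 annotated promoters, the AP-1 letters in 7.71%, the CREB letters in 1.85% and the FOXO letters in 3.42%. A relation of these matches to the expression values was not tested, and ETV5, IER3, DUSP5 and DUSP4 were not searched.

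The comparison of LY294002 with DMSO asks how the inhibitor alters gene expression in Hodgkin lymphoma cells. Of the 7 measured ERK feedback genes, 5 had higher values with LY294002 on both arrays than on any DMSO array: ETV5, IER3, DUSP5, DUSP4 and PHLDA1. SPRY2 had lower values on both, and the DUSP6 groups overlapped. Over all genes, 16.2% had both LY294002 arrays above all DMSO arrays and 13.4% had both below. The median log2 fold change was 0.50 over the 7 genes and -0.01 over all genes. With limma and Benjamini-Hochberg adjustment over all probe sets, 0 of the 7 passed the threshold of 0.05, against 0.908% of all genes (0.609% higher and 0.298% lower). At an unadjusted limma p under 0.05, 5 of the 7 were higher and 1 was lower, against 10.6% and 6.5% of all genes. Because the genes were chosen with earlier results of these data known, these counts and shares are a description and not a test. In 38% of probe sets a value recurred among the LY294002 arrays or among the DMSO arrays. The probe sets of the 7 genes held no such ties, so the shares over all genes include probe sets unlike theirs. The effect of these ties on the shares was not tested. The smallest adjusted p of the 7, 0.0546 for DUSP4, lay just beyond the threshold.

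**Figure D1:**
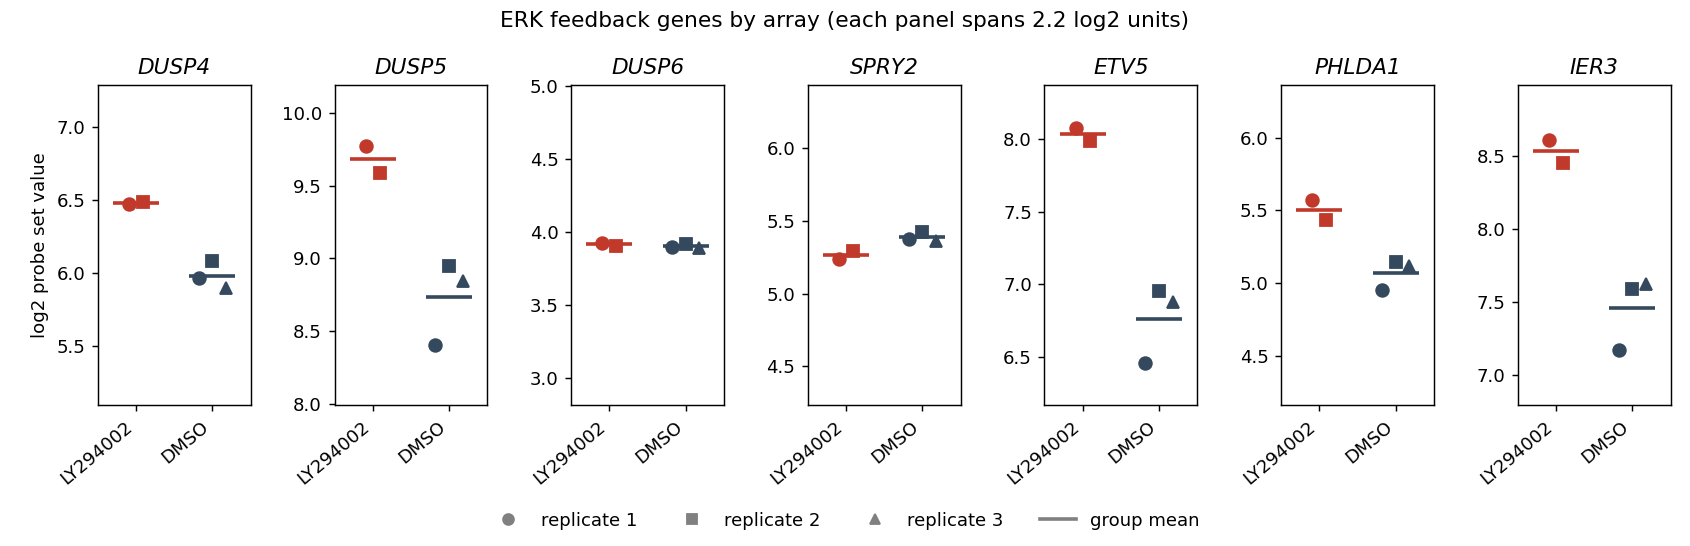
Log2 probe set values (vertical axis) of the 7 measured ERK feedback genes on the 2 LY294002 arrays (red, left in each panel) and the 3 DMSO arrays (dark blue, right), with marker shapes for replicate numbers and bars for group means. All panels span the same number of log2 units; the groups are apart in 6 genes and overlap in DUSP6, and DMSO replicate 1 is the lowest DMSO array for DUSP5, ETV5, PHLDA1 and IER3.

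Among the transcription factors of the set, ETV5 is an Ets factor of the PEA3 group that is induced by ERK and acts on genes downstream of growth factor receptors. Its probe set read 8.08 and 7.98 on the LY294002 arrays, against 6.46, 6.96 and 6.88 on the DMSO arrays. The lower LY294002 array stood 1.03 above the highest DMSO array, while the DMSO arrays themselves spanned 0.50. The fold was 2.4 (log2 1.27 ± 0.17, standard error, 95% interval 0.82 to 1.71), the largest of the 7 and number 12 of 7713 genes by log2 fold change. The limma adjusted p was 0.059. ETV5 passed the threshold in 5 of 14 other settings, namely after quantile normalization, median centring or cyclic loess, with dim probe sets left out, and under an intensity trend with a robust prior, with a lowest adjusted p of 0.0227 and a highest of 0.363.

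The phosphatases of the set differ in where they act and in what they bind. DUSP5 is a nuclear phosphatase specific for ERK, which it also anchors in the nucleus. It read 9.77 and 9.59 on the LY294002 arrays, against 8.41, 8.94 and 8.85 on the DMSO arrays. Both LY294002 arrays lay above every DMSO array, by at least 0.64. The fold was 1.93 (log2 0.95 ± 0.18, limma adjusted p = 0.107), and it passed after quantile normalization (0.0452) and after cyclic loess (0.0494).

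DUSP4 is a nuclear phosphatase that acts on ERK and on JNK and p38. Its values were 6.47 and 6.48 on the LY294002 arrays, against 5.97, 6.08 and 5.90 on the DMSO arrays. The LY294002 arrays differed by 0.01 from each other and stood at least 0.39 above the DMSO arrays. The difference was smaller than that of DUSP5 but had the smallest standard error of the 5 higher genes, at log2 0.50 ± 0.06, a fold of 1.41. Its limma adjusted p was 0.0546, and in 5 of 14 other settings it passed, with adjusted p-values between 0.0236 and 0.348 over all of them.

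DUSP6 is the cytoplasmic, ERK-specific phosphatase that is most often used as a marker of ERK output. It read 3.93 and 3.90 on the LY294002 arrays, against 3.90, 3.92 and 3.89 on the DMSO arrays. The groups overlapped, and the difference was 0.01 ± 0.03 (95% interval -0.06 to 0.09, limma adjusted p = 0.833). Only 0.389% of probe sets on the arrays were dimmer than this one. The probe sets of ETV5, IER3, DUSP4 and DUSP6 are of the kind that can bind several transcripts. The table holds no detection calls, so a transcript below the range of the probe set cannot be told apart from one that did not differ.

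SPRY2 is a Sprouty protein that restrains signalling from receptor tyrosine kinases to RAF. Its values were 5.24 and 5.29 on the LY294002 arrays, against 5.37, 5.43 and 5.36 on the DMSO arrays. Both LY294002 arrays lay below every DMSO array, the opposite order to the 5 higher genes. Only 27.2% of probe sets on the arrays were dimmer than that of SPRY2. The difference was small, at log2 -0.12 ± 0.04, with an interval of -0.22 to -0.02 and a limma adjusted p of 0.226. It stayed between -0.15 and -0.09 in the 13 other settings that kept the probe set, and passed in 0 of them.

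IER3 is an immediate early gene, also called IEX-1, whose product affects cell survival and prolongs ERK phosphorylation. It is also a target of NF-kB, which is constitutively active in Hodgkin lines. It read 8.61 and 8.46 on the LY294002 arrays, against 7.17, 7.59 and 7.62 on the DMSO arrays. The lower LY294002 array stood 0.83 above the highest DMSO array. The fold was 2.1 (log2 1.07 ± 0.16, limma adjusted p = 0.0758), number 20 of all genes by log2 fold change, and it passed in 4 of 14 other settings.

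PHLDA1 encodes a pleckstrin homology-like domain protein whose transcript is used in signatures of ERK output. It read 5.57 and 5.43 on the LY294002 arrays, against 4.95, 5.14 and 5.11 on the DMSO arrays. The groups did not overlap, with a gap of 0.29. The log2 fold change was 0.43 ± 0.08, a fold of 1.35, with a limma adjusted p of 0.0968, and it passed in 0 of 13 other settings.

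**Figure D2:**
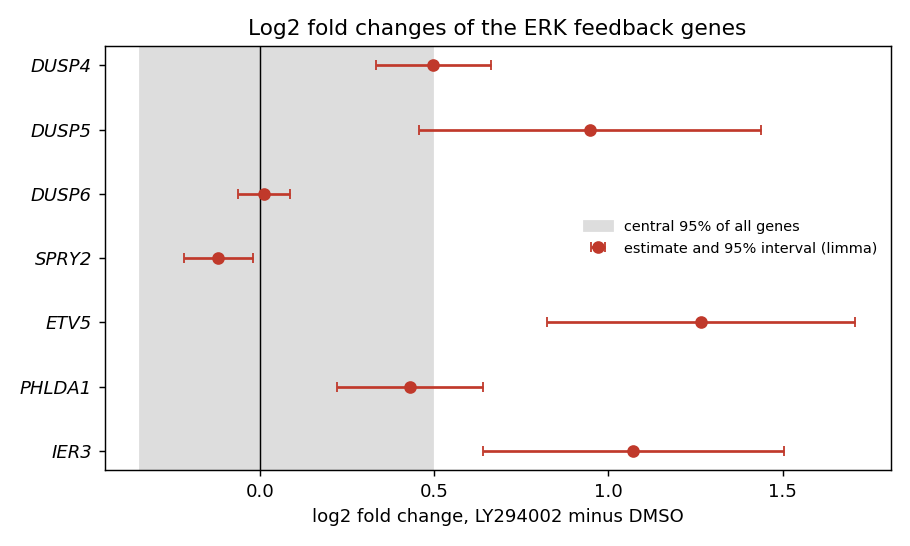
Log2 fold change of LY294002 minus DMSO (horizontal axis) for the 7 ERK feedback genes, with points for the limma estimates, bars for their 95% intervals and a grey band for the central 95% of all genes (-0.34 to 0.50). The intervals of ETV5, IER3 and DUSP5 are wide, DUSP6 and SPRY2 lie near 0, and the interval of DUSP6 holds 0.

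In 4 of the 5 higher genes, 1 control array stood apart from the other DMSO arrays. DMSO replicate 1 was the lowest DMSO array for 4 of the 7 genes, against 33.7% of all genes. Its log2 value minus the mean of the other DMSO arrays was -0.49 for DUSP5, -0.45 for ETV5, -0.44 for IER3 and -0.18 for PHLDA1. For DUSP4, DUSP6 and SPRY2 that difference was between -0.02 and -0.01. Without DMSO replicate 1, the log2 fold change was 1.11 for ETV5 (limma adjusted p = 0.0764), 0.93 for IER3 (0.0858), 0.79 for DUSP5 (0.11) and 0.37 for PHLDA1 (0.154). Over all fits with 1 array left out, the log2 fold changes of the 5 higher genes ran from 0.36 (PHLDA1 without LY294002 replicate 1) to 1.36 (ETV5 without DMSO replicate 2); that none changed sign follows from groups that do not overlap.

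**Figure D3:**
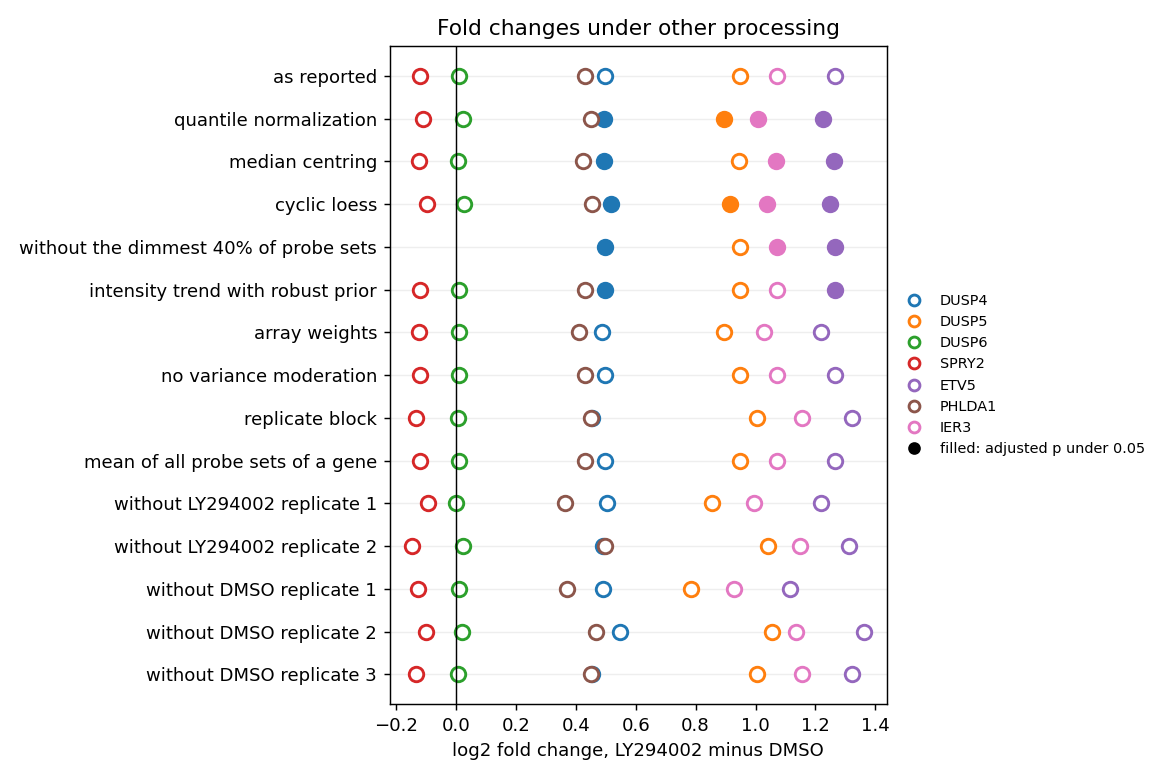
Log2 fold changes of LY294002 minus DMSO (horizontal axis) of the 7 genes as reported and in 14 other settings (rows), 1 colour for each gene, with filled points where the limma adjusted p was under 0.05. Filled points occur for ETV5, IER3, DUSP5 and DUSP4 under changes of scaling, filter or prior, and in 0 of the 5 settings that leave out an array.

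By the values over the 5 arrays, each centred on its gene's mean, the 5 genes nearest to ETV5 among 7712 others were the core histone gene H2BC12 (Euclidean distance 0.104 in log2 units), whose probe set may bind near-identical histone transcripts, the chemokine receptor gene CCR7 (0.145), IL2RA, the alpha chain of the interleukin-2 receptor (0.206), IER3 (0.232) and TGIF1, a homeodomain repressor (0.275). DUSP5 was number 7 at a distance of 0.355. DUSP4 was number 166 and PHLDA1 number 197, as their differences were smaller. The distance reflects the difference between the groups together with the low DMSO replicate 1. That array was the lowest DMSO array in ETV5 and in all 5 genes, but by less in TGIF1. Its log2 value minus the mean of the other DMSO arrays was -0.18 in TGIF1 and -0.45 in ETV5. In the other 4 genes it was -0.51 to -0.40. Of the 5, TGIF1 passed the limma threshold at log2 1.14 ± 0.10 (adjusted p = 0.0339). That call was lost with any 1 array left out (0.08745 to 0.181 without 1 DMSO array, where 0 to 4 of all genes passed). It was also lost with array weights (0.0713), without variance moderation (0.233) and with the replicate block (0.348). The other 4 of the 5 nearest genes had limma adjusted p-values between 0.0599 and 0.0776. Over the 14 other settings, H2BC12 passed in 6 (among them without DMSO replicate 1, at 1.15 and 0.0408), IL2RA in 5, IER3 in 4 and CCR7 in 3.

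**Figure D4:**
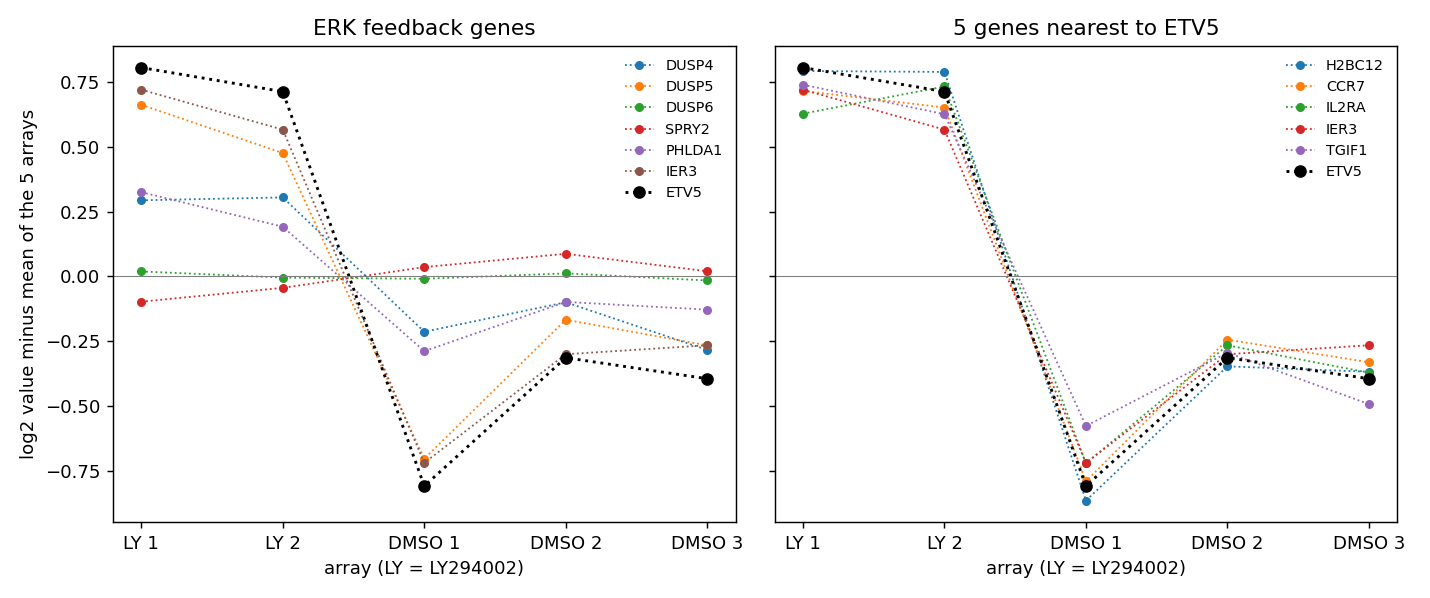
Log2 values minus the mean of the 5 arrays (vertical axis) on each array (horizontal axis, LY for LY294002), for the ERK feedback genes (left) and the 5 genes nearest to ETV5 (right), with ETV5 in black in both. Dotted lines join the points of 1 gene and carry no order; DUSP5 and IER3 run close to ETV5, DUSP4 and PHLDA1 have smaller differences, and SPRY2 runs the other way.

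Other genes of the pathway were described from 4 lists. Of 10 measured negative regulators of MAP kinase signalling outside the set, 0 passed in limma and 1 was higher at an unadjusted p under 0.05, with a median log2 fold change of 0.08. Over all genes 0.908% passed, and 10.6% were higher and 6.5% lower at that unadjusted limma p. DUSP10, a phosphatase of JNK and p38, read 7.45 and 7.40 with LY294002, against 6.93, 7.27 and 7.01 with DMSO (log2 0.36 ± 0.11, adjusted p = 0.221). The immediate early phosphatase gene DUSP1 read 7.47 and 7.53 with LY294002, against 6.56, 7.26 and 7.09 with DMSO (0.53 ± 0.22, 0.352). DUSP2, a nuclear phosphatase of lymphocytes, read 7.36 and 7.31 with LY294002, against 6.34, 7.10 and 7.07 with DMSO (0.50 ± 0.26, 0.425). As in DUSP5, DMSO replicate 1 was the lowest array in all 3 of these genes, but by less in DUSP10. Relative to the mean of the other DMSO arrays it was at -0.61 for DUSP1, -0.74 for DUSP2 and -0.21 for DUSP10. For DUSP5 that value was -0.49. Without DMSO replicate 1 the log2 fold change was 0.32 for DUSP1, 0.25 for DUSP2 and 0.29 for DUSP10. SPRY1 had no probe set.

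The 14 measured genes of the RAS, RAF, MEK and ERK cascade had a median log2 fold change of 0.17, of which 0 passed, and 2 were higher and 1 lower at an unadjusted p under 0.05. SOS2, an exchange factor that activates RAS, was at 0.46 ± 0.12 (limma adjusted p = 0.174), with leave-one-out values between 0.29 (LY294002 replicate 1 omitted) and 0.63 (LY294002 replicate 2 omitted), and the kinase gene ARAF at 0.32 ± 0.10 (0.216). Of 24 other ERK-responsive genes 0 passed, 5 were higher and 0 lower at an unadjusted p under 0.05, and the median was -0.02. The shares over all genes, beside this list and the cascade, were 10.6% higher and 6.5% lower at that unadjusted limma p. MCL1, a survival protein of the BCL2 family, was at 0.59 ± 0.09 (limma adjusted p = 0.0747), and the immediate early gene IER2 at 0.48 ± 0.08 (0.0767).

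The other transcription factor genes that respond to ERK and are given here had smaller differences than ETV5. JUNB, JUN and ATF3, which are factors of the AP-1 and ATF families, and ETS2 below were chosen after their values were seen. JUNB read 10.2 and 9.93 with LY294002, against 9.48, 9.57 and 9.63 with DMSO (log2 0.51 ± 0.10, limma adjusted p = 0.105), and it passed after quantile normalization (0.0351) and after cyclic loess (0.0451). JUN was at 0.37 ± 0.09 (0.147), or 0.24 without LY294002 replicate 1. ATF3 was at 0.46 ± 0.16 (limma adjusted p = 0.271), or 0.31 without DMSO replicate 1. In all 3, both LY294002 arrays lay above every DMSO array. Of the 24 measured genes of their list, 5 had both LY294002 arrays above all DMSO arrays and 3 had both below. Over all genes these shares were 16.2% and 13.4%. FOS read 6.01 and 6.19 with LY294002, against 5.73, 5.96 and 6.01 with DMSO (log2 0.20 ± 0.11, limma adjusted p = 0.432), or 0.11 without LY294002 replicate 2 and 0.12 without DMSO replicate 1. EGR1 read 5.73 and 5.91 with LY294002, against 5.57, 6.17 and 5.98 with DMSO (-0.09 ± 0.20, 0.821), so that its groups overlapped. MYC stood at 0.0018 ± 0.09 (0.999), and the sign of so small a value turned under quantile normalization, median centring and cyclic loess. Among 14 other Ets factor genes 1 passed: SPIB, a factor of B cells, fell to 8.72 and 8.63 with LY294002, against 9.62, 9.63 and 9.74 with DMSO (log2 -0.98 ± 0.05, limma adjusted p = 0.0168). ETV1, the other member of the PEA3 group with a probe set, was at -0.02 ± 0.03 (0.717; 0.0032 after cyclic loess), and ETV6, a repressor of the Ets family, at -0.04 ± 0.03 (0.573). ETS2, an Ets factor that ERK can phosphorylate, read 6.44 and 6.13 with LY294002, against 5.90, 5.64 and 5.78 with DMSO (0.51 ± 0.13, 0.157). The median of the Ets list was -0.01. At an unadjusted limma p under 0.05, 1 gene was higher and 2 lower, against 10.6% and 6.5% of all genes. The call of SPIB was lost in each of the fits with 1 array left out (log2 -1.03 to -0.94). With 1 DMSO array left out its limma adjusted p was 0.0858 to 0.132, in fits where 0 to 4 of all genes passed. The SPIB call was also lost with the replicate number as a block (0.348) and without variance moderation (0.139).

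**Figure D5:**
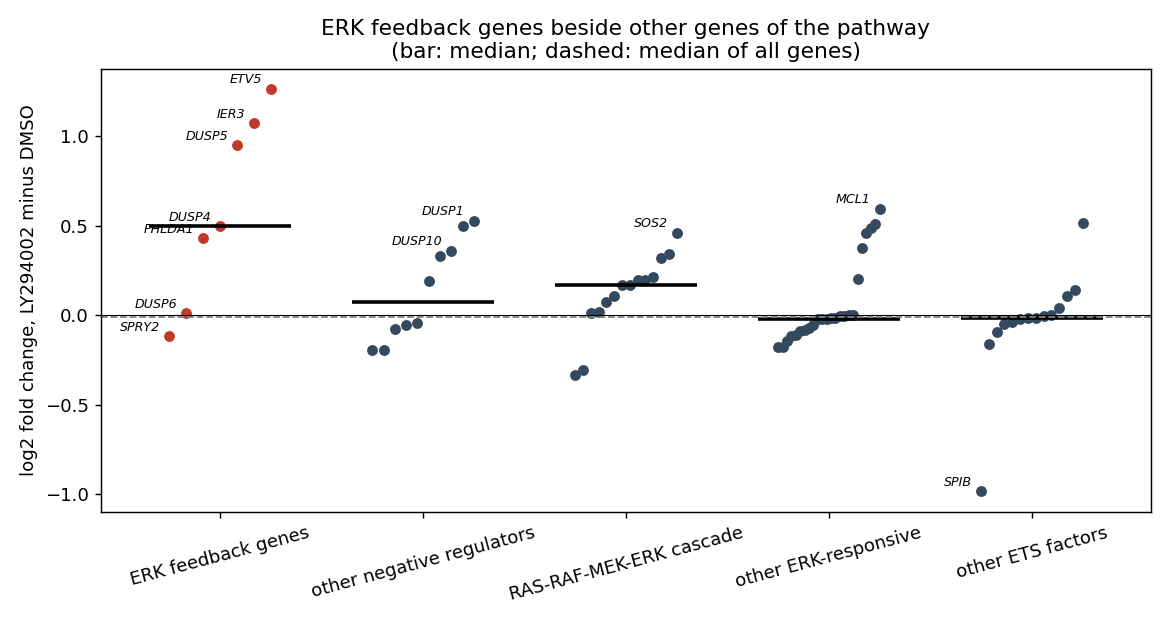
Log2 fold change of LY294002 minus DMSO (vertical axis) of each measured gene in the ERK feedback set (red) and in 4 other lists of the pathway (dark blue), with bars at the list medians (0.50, 0.08, 0.17, -0.02 and -0.01 from left to right) and a dashed line at the median of all genes. ETV5, IER3 and DUSP5 lie above every gene of the other lists, and SPIB lies lowest.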

How the data were processed

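The authors deposited log2 probe set values for 5 Affymetrix arrays, with affy (an R package) as the tool, per the submitters' processing notes; the background correction and the summary method were not given in the sources used here. Values were used as deposited. Without 47 control probe sets, 8746 were fitted. Symbols came from the platform annotation: 7840 probe sets had 1 gene, 388 several and 518 none. The brightest probe set stood for a gene (7713 genes). No build is named for the array, so probe sets carry no coordinates. Names ending in _s_at mark probe sets that can bind several transcripts.

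LY294002 was compared with DMSO by limma 3.58.1 (lmFit, eBayes; R 4.3.3), group as the only term, 3 residual degrees of freedom, adjusted over all probe sets. The fit was tested on simulated data. Errors of log2 fold changes are standard errors of this fit (n = 2 LY294002, n = 3 DMSO); array number limits precision. The members and lists were chosen with earlier results of these data known. Named genes are the members, up to 3 passing genes of each other list (otherwise the 2 with the smallest p), genes fixed by name and the 5 nearest to ETV5; markers describe the cells. Lists are described by counts and medians, without a list test. Motif shares are over all RefSeq promoters given. Alternatives were 3 scalings, a filter on dim probe sets, 3 variance models, the replicate block, probe set averaging and each array left out. Figures used matplotlib 3.10.9.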

Additional observations from a re-analysis of the deposited data

How the results depend on the processing

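With limma 70 genes passed as reported, and 264 did so after cyclic loess, 299 after quantile normalization, 203 of 4642 without the dimmest 40% of probe sets, 147 after median centring, 17 with array weights, 1 without variance moderation and 0 with the replicate block. With 1 array left out the count was 0 to 4, where 946 to 2085 genes still had an unadjusted p under 0.05. Of the ERK feedback genes, 0 as reported, 4 passed after quantile normalization and after cyclic loess, 3 after median centring and without dim probe sets, 2 with the intensity trend and robust prior, and 0 in the other 9 settings. Other ERK-responsive genes passed in 3 cases after quantile normalization and after cyclic loess and in 2 without dim probe sets. The count of other Ets factors, 1 as reported, was 0 without variance moderation, with the replicate block and in each fit with 1 array left out. The members' median log2 fold change, 0.50 as reported, was 1.01 without dim probe sets, because that filter removes DUSP6, SPRY2 and PHLDA1; it was 0.46 to 0.55 with 1 array left out. DUSP6, at 0.01 as reported, lay between -0.00019 (without LY294002 replicate 1) and 0.0235 (without LY294002 replicate 2) with 1 array left out, while the other 6 genes kept their sign in every setting that held them. Among other named genes, MYC was at -0.042 after quantile normalization, -0.0026 after median centring, -0.0054 after cyclic loess, -0.025 with array weights and -0.074 to 0.063 with 1 array left out; ETV1 was at 0.0032 after cyclic loess. With 1 array left out, EGR1 lay between -0.25 and 0.047 and ETV6 between -0.074 and 0.00071. For the other shifts the cause was not tested.

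The replicate numbers are not said to pair the arrays. Across probe sets, deviations from the group means correlated at 0.00209 between the arrays numbered 1 and at -0.213 between those numbered 2. Between LY294002 and DMSO arrays of unlike number the correlations ran from -0.204 to 0.213. With only 2 LY294002 arrays, their deviations mirror each other, so these values are not independent. With the number as a block, which leaves DMSO replicate 3 out of the difference, the log2 fold change was 1.32 for ETV5 (limma adjusted p = 0.363), 1.15 for IER3 (0.371), 1.00 for DUSP5 (0.435) and 0.46 for DUSP4 (0.348), the members' median was 0.46, and 820 genes had an unadjusted p under 0.05. Dim probe sets such as that of DUSP6 limit what can be seen of their genes.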
